A study of Mus musculus with 104 samples.

Results

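The supraoptic nucleus (SO) was compared with the paraventricular hypothalamic nucleus (Pa), the other hypothalamic nucleus rich in magnocellular neurosecretory cells. The samples were chosen by their titles: the 2 SO arrays and the 2 Pa arrays, 4 arrays from 2 of the 52 regions in the series. All 4 came from male Balb/c mice aged 7 to 8 weeks with no treatment or genetic change named. The mice were bought at 5 weeks of age and adapted for 2 weeks to 12 hours of light and 12 hours of dark. The labels give sampling under that cycle or under constant darkness without saying which applied to which array. Each region was punched from both sides of frozen slices 0.5 mm thick with a 0.5 mm needle, at 6 times of day 4 hours apart, and the RNA of the 6 times was pooled, so the values hold no time of day. Every one of the 52 regions has 2 arrays, sampled independently of each other. Whether they came from separate animals is not stated, so a p-value here reflects only how far replicate arrays differ, which may be partly technical.

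Both nuclei send axons to the posterior pituitary, where magnocellular neurons release vasopressin, which acts on the kidney to retain water, and oxytocin, which acts in birth, lactation and social behaviour. SO is made up mostly of magnocellular neurons and lies beside the optic tract at the ventral surface of the brain, under the meninges. Pa lies along the third ventricle and adds parvocellular neurons, which release corticotropin-releasing hormone, thyrotropin-releasing hormone and somatostatin at the median eminence, and neurons that project to the brainstem and spinal cord. In bulk tissue such as these punches, fewer cells of a type and less RNA per cell cannot be told apart.

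Expression is given as the authors' log2 values (RMA, a summary of the probes of each probe set), so a difference of 1 is a 2-fold difference, and every difference below is SO minus Pa unless stated. A gene was said to have risen or fallen where limma's Benjamini-Hochberg adjusted p over 18193 genes was under 0.05 and the difference was at least 2-fold. By this rule 675 genes, 3.71% of those tested, were higher in SO than in Pa, and 431 genes, 2.37%, were lower. In all 1106 of them the SO arrays and the Pa arrays did not overlap, as was the case in 63.3% of all genes. The median difference over all genes was -0.002, and 49.5% of genes had a positive difference. The larger differences lay on the SO side: 17 genes were higher in SO by 4 or more, 50 by 3 to 4 and 124 by 2 to 3, against 1 gene lower in SO by 4 or more, 2 by 3 to 4 and 26 by 2 to 3. Of the higher genes 257 had a Pa mean below the table's median of 7.39, and of the lower genes 116 had an SO mean below it. Detection calls were not used here, so where the lower region is dim the size of a difference is that of the log2 values only.

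The replicate arrays correlated across genes at 0.994 in SO and 0.996 in Pa, against 0.950 to 0.955 between an SO and a Pa array. The median SD between replicates was 0.084 in SO and 0.080 in Pa, near the 0.074 typical of a region. The first SO array stood apart on the array's own controls. Its spiked hybridisation controls averaged 12.13, the top of the range of 9.95 to 12.13 over 102 arrays, against 11.32 on the second SO array and 11.13 and 11.39 on the Pa arrays. Its 18S ribosomal RNA probe set read 10.86, against 8.64 on the second SO array and 9.19 and 9.52 on the Pa arrays. The 3' minus 5' difference of the beta-actin probe sets, a measure of RNA integrity, was 0.30 and 0.39 on the SO arrays and 0.92 and 0.98 on the Pa arrays. The 2 arrays left out of that range, of the preoptic area (POA), had hybridisation controls at 5.20 and 5.17, while their median values and other controls were within the range of the rest. The actin values separated SO from Pa, and the part of RNA integrity in the gene differences was not tested. Without the first SO array 646 genes were higher in SO and 428 were lower.

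Avp, which encodes vasopressin, and Oxt, which encodes oxytocin, did not pass the test between the nuclei. Avp read 14.28 and 14.41 in SO, against 14.21 and 13.73 in Pa. The arrays did not overlap, but the difference of 0.38 (SE 0.21, 95% interval -0.05 to 0.80) had an adjusted p of 0.17 in limma. Oxt read 13.92 and 14.31 in SO, against 14.84 and 14.27 in Pa, and here the arrays overlapped. Its difference was -0.44 (SE 0.19, 95% interval -0.81 to -0.07), with an adjusted p of 0.060 in limma. Leaving out 1 array moved this p across the threshold: it was 0.00994 without the second Pa array, 0.0249 without the second SO array, 0.501 without the first SO array and 0.646 without the first Pa array. Each gene's difference stayed under 2-fold in all 4 cases.

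The defining markers were thus present in both nuclei, at levels among the highest of the 52 regions. Avp ranked 1 in SO and 2 in Pa, ahead of POA at 13.21 and 13.90, whose higher array exceeded the lower Pa array. Oxt ranked 1 in Pa, 2 in the medial preoptic area (MPA) at 14.26 and 14.18, and 3 in SO. The SO arrays overlapped those of Pa and of MPA, and the lower Pa array was just above the higher MPA array. Against the mean of 10 other hypothalamic regions, Avp was higher in SO by 4.28 (19.4-fold) and in Pa by 3.90 (14.9-fold), and Oxt was higher in SO by 2.54 (5.82-fold) and in Pa by 2.98 (7.89-fold). Those comparisons share the same 10 regions: the mammillary body, median eminence (ME), suprachiasmatic nucleus (SCN), MPA, ventral and dorsal subparaventricular zone, dorsomedial (DM), ventromedial and arcuate (Arc) nuclei and lateral hypothalamus (LH). The lowest region mean was 6.84 for Avp, in the anterior olfactory bulb, and 9.75 for Oxt, in CA1 of the hippocampus. The folds of Avp and Oxt thus stand on unlike floors and cannot be compared with each other. The highest value of any probe set in the table was 15.15.

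**Figure D1:**
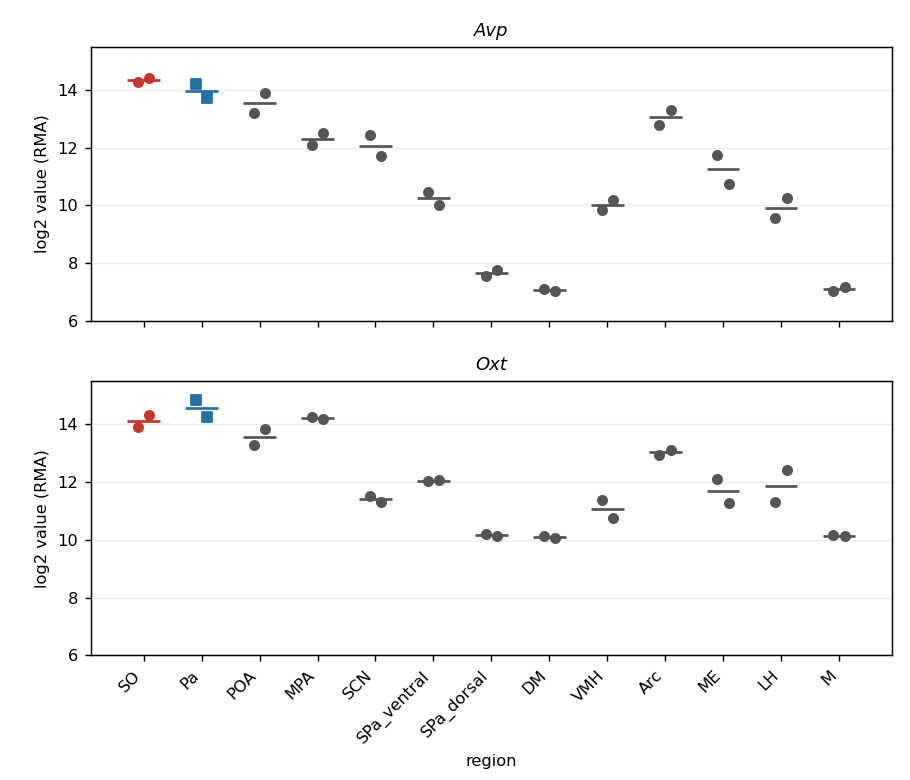
Log2 expression values (RMA, vertical axis) of Avp and Oxt in SO, Pa and 11 further regions (horizontal axis); each point is 1 array and each bar the mean of 2. Avp is highest in SO and Pa, and Oxt is highest in Pa, followed by MPA and SO.

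The promoters of the genes that carry the comparison are shown because the hormone pair shares a locus on chromosome 2 and because a pair of the peptide genes that fell in SO shares an element. They run from 250 bases before to 50 bases after the transcription start (RefSeq, GRCm38.p6). Capitals mark the E-box CACGTG, the site of clock factors, in Avp, and the cyclic AMP response element TGACGTCA, the site of CREB, in Sst and Cartpt. Avp lies at chr2:130582539-130582838 on the minus strand, Oxt at chr2:130575919-130576218 on the plus strand, Sst at chr16:23890795-23891094 on the minus strand and Cartpt at chr13:99900634-99900933 on the minus strand.
Avp: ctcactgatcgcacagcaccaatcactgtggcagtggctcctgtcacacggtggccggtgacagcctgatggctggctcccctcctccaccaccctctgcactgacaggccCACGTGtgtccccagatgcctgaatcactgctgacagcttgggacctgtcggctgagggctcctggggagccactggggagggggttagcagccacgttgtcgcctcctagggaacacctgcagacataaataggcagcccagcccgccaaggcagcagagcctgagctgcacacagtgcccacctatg
Oxt: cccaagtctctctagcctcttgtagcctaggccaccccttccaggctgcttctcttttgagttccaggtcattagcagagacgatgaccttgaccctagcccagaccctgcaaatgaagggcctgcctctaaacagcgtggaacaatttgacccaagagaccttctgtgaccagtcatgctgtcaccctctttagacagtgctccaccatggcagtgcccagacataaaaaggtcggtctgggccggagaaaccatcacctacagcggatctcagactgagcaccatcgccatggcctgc
Sst: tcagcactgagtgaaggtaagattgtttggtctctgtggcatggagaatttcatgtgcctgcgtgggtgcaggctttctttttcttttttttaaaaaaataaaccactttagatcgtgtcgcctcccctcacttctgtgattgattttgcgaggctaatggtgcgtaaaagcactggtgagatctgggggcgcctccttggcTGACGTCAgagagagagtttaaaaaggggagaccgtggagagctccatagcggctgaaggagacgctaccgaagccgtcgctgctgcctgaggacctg
Cartpt: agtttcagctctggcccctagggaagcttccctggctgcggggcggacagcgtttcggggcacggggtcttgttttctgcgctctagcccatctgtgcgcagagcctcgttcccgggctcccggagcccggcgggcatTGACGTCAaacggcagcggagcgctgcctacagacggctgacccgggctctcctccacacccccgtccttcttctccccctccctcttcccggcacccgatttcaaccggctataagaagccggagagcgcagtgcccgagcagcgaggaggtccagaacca

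The Avp and Oxt genes face each other as neighbours, and neither window holds TGACGTCA. The first base of the Avp E-box is at position -139 from the start, and the Oxt window holds none. Both motifs read the same on both strands and do not overlap each other. The cyclic AMP element begins at position -48 in Sst and -112 in Cartpt. Of the 20 genes made up of the parvocellular peptide list and the hormone pair, 17 had a promoter in the table: 2 of them, Sst and Cartpt, held the cyclic AMP element and 4, Avp, Cck, Prok2 and Tac1, held the E-box. Crh and Penk, which fell in SO, and Pnoc had no promoter sequence available and were not searched. Among all 32851 promoters 1.79% held the cyclic AMP element and 7.15% the E-box. A match describes the letters of the window and is not a binding site.

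The gene of corticotropin-releasing hormone fell in SO, where it was near the bottom of the scale. Crh, which starts the pituitary and adrenal stress response, read 4.93 and 4.76 in SO, against 9.14 and 9.06 in Pa. Both SO arrays were near the lowest value in the table, 3.89, and both Pa arrays were above the mean of every other hypothalamic region, the highest of which was 8.90. The difference of the log2 values was -4.26 (SE 0.35), with an adjusted p of 5.73e-16 in limma.

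Other peptides of parvocellular Pa neurons fell in SO as well. Sst, which encodes somatostatin, the inhibitor of growth hormone release, read 10.10 and 9.48 in SO, against 12.22 and 11.86 in Pa, a difference of -2.25 (4.77-fold). Cartpt, which encodes the appetite-reducing peptide CART, read 8.56 and 8.68 in SO, against 10.89 and 10.99 in Pa, a difference of -2.32 (4.99-fold). Penk, which encodes the enkephalins, fell by 1.18, and Adcyap1, which encodes the peptide PACAP, fell by 1.12. In each of these 4 genes both SO arrays were below both Pa arrays, as in every gene that fell and in 33.2% of all genes.

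Of the 17 measured parvocellular peptide genes, these 5 fell and none rose, and the median difference was -0.12. Trh, which encodes thyrotropin-releasing hormone, read 9.60 and 9.45 in SO, against 10.28 and 10.17 in Pa, and its difference of -0.70 did not reach 2-fold (adjusted p 0.00053 in limma). In Trh Pa ranked 2 of the 52 regions and SO 7. Ucn3, which encodes urocortin 3, a relative of Crh that was in no list, read 7.09 and 7.23 in SO, against 8.36 and 8.12 in Pa. It fell by 1.08, or by 0.96 without the first Pa array, which is under 2-fold, and was the 1 gene that fell in SO and was highest in Pa of all 52 regions; it was picked out after its values were seen.

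The 11 peptide genes known from magnocellular neurons, which share 7 genes with the parvocellular list, held 3 that fell, Penk, Cartpt and Crh, none that rose, and a median difference of -0.15. Pdyn, whose dynorphins are stored with vasopressin, read 7.15 and 7.43 in SO, against 6.80 and 6.84 in Pa. Gal, which encodes galanin, read 9.88 and 9.83 in SO, against 9.43 and 9.30 in Pa. In both genes the SO arrays were above the Pa arrays, as in 30.1% of all genes, but the differences of 0.46 and 0.49 were under 2-fold. The differences of Tac1, Cck, Apln, Nucb2 and Nmb lay between -0.21 and 0.16.

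**Figure D2:**
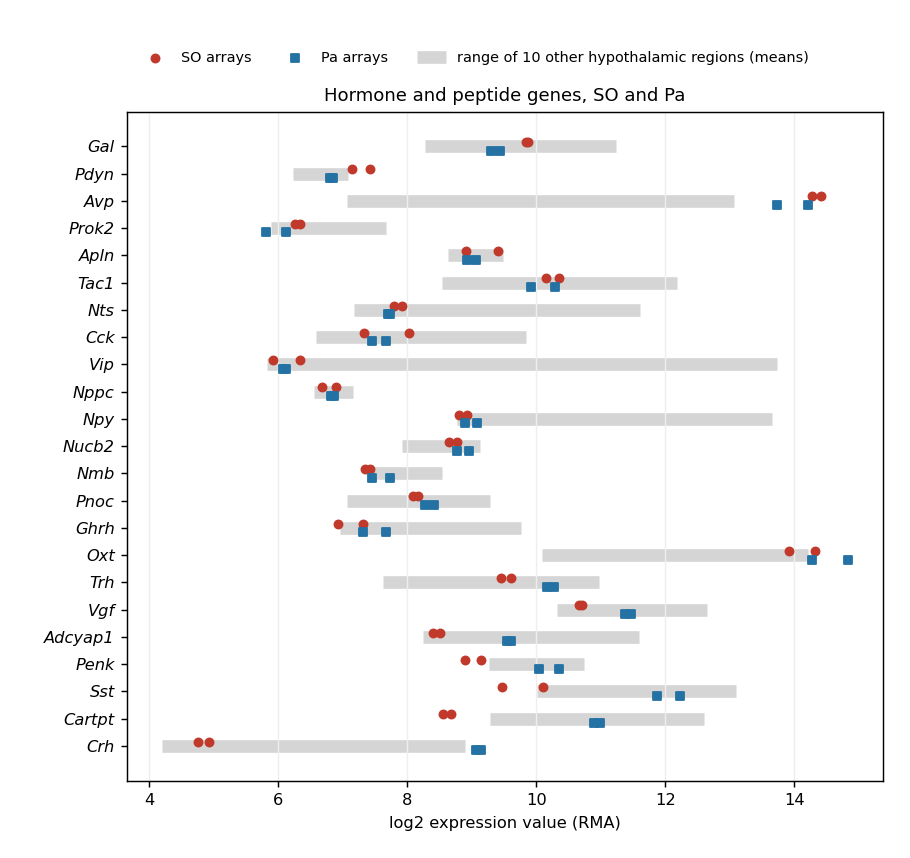
Log2 expression values (RMA, horizontal axis) of the hormone and peptide genes in each SO array (circles) and Pa array (squares), ordered by SO minus Pa; grey bars span the means of 10 other hypothalamic regions. Gal and Pdyn lie at the top with SO to the right of Pa, and Crh, Cartpt and Sst at the bottom with SO to the left.

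Pmch, which encodes melanin-concentrating hormone, a peptide of lateral hypothalamic neurons, read 10.20 and 9.18 in SO, against 13.03 and 13.79 in Pa, a difference of -3.71 (13.1-fold). It was the only gene of 15 measured markers of other hypothalamic nuclei that fell, and none rose (median 0.05). In Pmch Pa ranked 2 of the 52 regions after DM at 13.98. Hcrt, which encodes orexin of neighbouring lateral neurons, read 8.44 and 8.12 in SO, against 7.79 and 8.60 in Pa, and was highest in DM at 11.11. The arrays labelled LH thus held neither maximum. How far the Pa punches reached into tissue with Pmch neurons was not tested.

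Most transcription factors that build the magnocellular and parvocellular lineages did not differ by 2-fold. Sim1, without which these neurons fail to form, read 7.46 and 7.92 in SO, against 7.82 and 7.49 in Pa, a difference of 0.03 (95% interval -0.21 to 0.28) whose sign turned under several alternatives. SO and Pa ranked 1 and 2 of 52 regions in Sim1, ahead of POA at 7.39, and their arrays overlapped. Pou3f2 (Brn2) read 10.24 and 9.87 in SO, against 9.59 and 9.70 in Pa, and ranked 1 in SO and 3 in Pa. Otp, which acts beside Sim1, read 10.70 and 10.64 in SO, against 11.37 and 11.56 in Pa, a difference of -0.80 that did not reach 2-fold.

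Of the 17 measured lineage factors 1 rose, 1 fell and the median difference was 0.03. Foxp1, a forkhead factor, rose by 1.18, but its other 7 probe sets gave 0.03 to 1.36 and the mean of all its probe sets was under 2-fold at 0.82. Nhlh2, a helix-loop-helix factor of peptide neurons, read 6.27 and 6.42 in SO, against 7.50 and 7.31 in Pa, a difference of -1.06. The Nhlh2 difference was under 2-fold at -0.99 without the first SO array and -0.97 without the first Pa array. Ebf3, an early B cell factor family member expressed in neurons, read 8.61 and 8.57 in SO, against 7.98 and 7.69 in Pa, a difference of 0.75. Ebf3 exceeded the mean of the 10 other hypothalamic regions by 2.29 in SO and by 1.54 in Pa.

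Only 1 gene had all 4 arrays of SO and Pa above every array of the other 50 regions. Caprin2, an RNA-binding protein that in the rat binds vasopressin mRNA, read 9.77 and 9.86 in SO, against 8.96 and 8.40 in Pa, and 8.21 in POA, the next region. It rose by 1.13 in SO over Pa (SE 0.16, adjusted p 1.36e-08 in limma), and by 0.86, under 2-fold, without the second Pa array. By means, 18 genes had SO and Pa as their highest pair, 10 of them at or above the table's median of 7.39 in both. After Caprin2, Avp and Sim1, which led the third region by 0.47, 0.41 and 0.27, the lead of the other 7 (Selenov, Dmrtb1, Defb15, Inhbc, Tspo2, Upk2 and 1 with a provisional name) was 0.07 or less.

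Receptors for hormones and peptides fell or did not change by 2-fold: of 29 measured, 5 fell, none rose and the median difference was -0.11. Calcr, the calcitonin receptor, read 5.99 and 6.24 in SO, against 9.16 and 9.03 in Pa, a difference of -2.98 (7.90-fold). Cckar, the cholecystokinin A receptor, read 5.27 and 5.60 in SO, against 7.21 and 7.78 in Pa, a difference of -2.06. Agtr1a, the angiotensin II type 1a receptor that parvocellular Pa neurons carry, read 5.98 and 5.87 in SO, against 7.64 and 7.87 in Pa, a difference of -1.83.

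In these 3 receptors Pa ranked 5, 2 and 3 of 52 regions, and SO 18, 16 and 20. Npy2r, a receptor of neuropeptide Y and peptide YY, fell by 1.43, and Esr1, the oestrogen receptor alpha, by 1.35. The other Esr1 probe sets gave -0.64 to -0.05. Lepr, the leptin receptor, read 8.90 and 9.03 in SO, against 8.32 and 7.97 in Pa, a difference of 0.82 with SO the highest of 52 regions; over the mean of its probe sets the difference was 1.41 and passed. The receptors of the hormones themselves lay close together, with differences of -0.17 for Avpr1a, -0.20 for Avpr1b and 0.05 for Oxtr.

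Of 9 measured genes of GABA synthesis and release, 5 fell in SO. Gad2, which encodes an enzyme that makes GABA, read 9.87 and 9.85 in SO, against 12.04 and 12.16 in Pa, a difference of -2.23 (4.70-fold, adjusted p 1.22e-12 in limma). Gad1, the other such enzyme, fell by 1.57, and Slc32a1, the vesicular GABA transporter, by 2.37. Dlx1 and Dlx2, homeobox factors of GABA neurons, fell by 2.29 and 1.22. None of the 9 rose, and the median difference was -1.22.

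The second probe sets of Gad1 and Gad2 gave -1.52 and -2.40, but the other 3 of Slc32a1 gave 0.21 to 0.32, so the Slc32a1 result rests on its brightest probe set. Against the mean of 10 other hypothalamic regions, Gad2 stood at -1.23 in SO and 1.00 in Pa. Slc17a6, the vesicular glutamate transporter of most hypothalamic neurons, read 10.27 and 10.52 in SO, against 11.03 and 11.13 in Pa, and its difference of -0.69 did not reach 2-fold. Slc17a7, its cortical relative, differed by 0.14.

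Genes that all neurons use were lower in SO too. Of 23 measured in a list chosen after the data were seen, 22 had a negative difference, 7 fell (Syt1, Rbfox3, Syp, Syn1, Syn2, Thy1 and Celf4, by 1.00 to 1.37) and the median was -0.81. The other probe sets of Syp gave -0.36, of Rbfox3 -0.77 and -0.14 and of Syn2 -1.08 to -0.002, and over the mean of their probe sets these 3 did not pass. Syn1, Syn2, Thy1 and Celf4 also fell under 2-fold on leaving out 1 array or more, at -0.87 to -0.98. The list's mean was 10.79 and 10.78 on the SO arrays and 11.50 and 11.66 on the Pa arrays. Elavl2, an RNA-binding protein of neurons, was the exception at 0.35. The list's own members were not left out of the counts that follow. Across 47 other regions of brain and spinal cord 187 genes (1.03%) correlated above 0.6 with the mean of the list, and 28 of the 431 genes lower in SO (6.5%) were among them, leaving 403. The part of neuron content in the falls was not tested.

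Genes of prohormone processing and of the dense core granules that carry vasopressin and oxytocin leaned to lower values in SO, by less than 2-fold in most cases. Their median difference of -0.75 was near the -0.81 of the list of neurons in general, so the lean was not particular to them. Pcsk1, the convertase that cuts prohormones, read 10.15 and 10.04 in SO, against 9.72 and 9.36 in Pa, a difference of 0.56; SO and Pa ranked 2 and 3 of 52. Pam, the enzyme that amidates both hormones, read 8.01 and 7.95 in SO, against 8.59 and 8.42 in Pa, a difference of -0.52 with Pa the highest of 52 regions. Neither reached 2-fold.

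Of the 21 measured processing and granule genes, 3 fell, none rose and 20 had a negative difference (median -0.75). The 3 were Slc18a2, the vesicular monoamine transporter, at -1.31, Rab3c, a vesicle GTPase, at -1.20, and Syt4, a granule synaptotagmin, at 10.19 and 10.09 in SO, against 11.10 and 11.20 in Pa. Other probe sets of Rab3c gave -1.55 to -0.14 and that of Syt4 -0.69. The Syt4 difference of about 1 was under 2-fold at -0.94 after quantile normalization, -0.95 without the second SO array and -0.96 without the second Pa array. The granins Chga, Chgb and Scg2 had differences of -0.93, -0.95 and -0.80. Chgb was at 10.97 on both SO arrays and at 11.86 and 11.99 on the Pa arrays, and was lowest in SO of all 52 regions. Cpe, the carboxypeptidase that trims processed hormones, was at 13.49 and 13.33 in SO, against 13.49 and 13.59 in Pa. Slc18a2 lost its call without the first SO array (adjusted p 0.0747) and without the second Pa array (0.0518), both in limma.

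As deposited, none of the 25 genes of protein folding in the endoplasmic reticulum passed, and their median difference was 0.22, with 19 positive. Creb3l2, a transcription factor held in the membrane of that compartment, came closest with 8.80 and 8.81 in SO, against 7.93 and 7.75 in Pa, a difference of 0.96, and passed at 1.03 over the mean of its probe sets and also passed after quantile normalization and without the first Pa array. Pdia3, a disulphide isomerase, read 12.14 and 12.04 in SO, against 11.45 and 11.36 in Pa, a difference of 0.69. Its other probe set gave -0.25. Of the 6 genes with a negative difference Hyou1 was lowest at -0.49, with other probe sets at -0.74 and -0.54. Hspa5, the main chaperone of the compartment, differed by 0.38. SO ranked 2 of 52 regions in Hspa5, Hsp90b1, Pdia3 and Pdia4 and 3 in Creb3l2, while Pa ranked 5 to 18 in these 5 genes.

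Among 24 measured channel, transporter and water balance genes, 2 rose and 1 fell (median -0.28). The chloride transporters split. Slc12a2 (NKCC1), which brings chloride into cells and is carried by glia as well as neurons, read 11.41 and 11.34 in SO, against 9.67 and 9.63 in Pa, a rise of 1.72. Slc12a5 (KCC2), the chloride exporter of neurons, read 11.71 and 11.82 in SO, against 13.00 and 13.11 in Pa, a fall of 1.29. Both directions held in every other probe set of the genes, at 1.72 to 2.08 for Slc12a2 and -1.15 for Slc12a5. Aqp4, the water channel of astrocytes, rose by 2.66 and was highest in SO of 52 regions, with other probe sets at 1.24 to 1.63.

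The channels linked to osmotic sensing in magnocellular neurons differed by -0.10 (Trpv1), 0.23 (Trpv2) and 0.29 (Trpv4), all under 2-fold. Trpv2 was highest in SO of the 52 regions, at 8.76 and 8.53, against 8.40 and 8.44 in Pa. Of 6 measured genes of nitric oxide, steroid and thyroid signalling, Gucy1a1, a subunit of the nitric oxide receptor, fell by 1.29 and none rose (median -0.27). Without the first SO array the Gucy1a1 difference was -0.99, and its other probe sets gave -0.72 and -0.26. Dio2, which activates thyroid hormone, read 7.38 and 7.54 in SO, against 6.49 and 6.45 in Pa, the lowest of all 52 regions, a difference of 0.99 that its other probe sets, at -0.15 and 0.11, did not share.

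All 12 measured myelin genes rose in SO, with a median difference of 2.92. Cldn11, the claudin of myelin tight junctions, read 11.14 and 10.95 in SO, against 6.74 and 7.13 in Pa, a difference of 4.11. Mog, a glycoprotein on the outer face of myelin, read 10.21 and 9.85 in SO, against 6.49 and 6.64 in Pa, a difference of 3.46. The smallest rise was that of Mbp, myelin basic protein, 2.83-fold, whose other 7 probe sets gave -0.43 to 2.84. Opalin rose by 2.49, but its second probe set gave 0.12. The other probe sets of Mobp, which rose by 3.29, gave 0.83 to 4.16.

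The list's mean was 11.86 and 11.73 on the SO arrays and 8.73 and 8.97 on the Pa arrays, against 9.80 over the 10 other hypothalamic regions. Pa was low in myelin as well as SO high: by list mean SO ranked 5 and Pa 43 of 52. Markers of oligodendrocyte precursors moved less, with 6 of 7 positive, none risen and Lhfpl3 fallen by 1.20 (median 0.78). Pdgfra, the receptor that defines these cells, differed by 0.82.

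Genes of the meninges rose in 14 of 15 cases, with a median of 3.48, the highest median of the lists. Slc6a20a, a transporter of proline in meningeal cells, read 11.47 and 11.76 in SO, against 5.83 and 6.63 in Pa, a difference of 5.38 (SE 0.28). Efemp1, a fibulin of the extracellular matrix, read 10.50 and 10.26 in SO, against 5.57 and 5.68 in Pa, a difference of 4.76. The exception was Col1a1, a collagen, at 0.95, whose second probe set gave 1.99 and which passed at 1.47 over the mean of both and at 1.13 without the second SO array.

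The mean of this list was 10.58 and 10.55 on the SO arrays, against 7.14 and 7.20 on the Pa arrays and 7.95 over the 10 other hypothalamic regions, and SO ranked 2 of 52. The second probe sets of Dcn, Col3a1 and Igf2 gave smaller differences of 0.39, 0.60 and 1.31, and that of Ogn a larger one of 5.99. Vascular smooth muscle markers rose in 4 of 6 cases (median 2.55): Tagln, transgelin, by 4.18, Acta2, smooth muscle actin, by 3.59, Myl9 by 3.48 and Cnn1 by 1.63. Both other probe sets of Acta2 gave 0.07 and 0.17.

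Cells of vessels and immune cells followed with smaller differences. Of 12 endothelial and pericyte markers 4 rose, Vtn by 2.89, Pecam1 by 1.95, Abcb1a by 1.44 and Tek by 1.23, and all 12 were positive (median 0.69). Of 13 microglia and border macrophage markers 6 rose and all 13 were positive (median 0.89). The complement genes C1qa, C1qb and C1qc rose by 1.86, 1.73 and 2.01, and Pf4 and Mrc1, which mark macrophages at the borders of the brain, by 2.33 and 2.17. Aif1 rose as well, but was under 2-fold at 0.91 without the first Pa array. P2ry12 and Tmem119, which mark microglia of the tissue itself, differed by 0.33 and 0.63 and did not pass. Cd163 and Lyve1, also used to mark border macrophages, differed by 0.89 and 0.71 and did not pass either. Cx3cr1, a receptor of microglia, differed by 0.78. Its second probe set gave 1.42, and over the mean of its probe sets it passed at 1.10. The markers thus did not split cleanly between border and tissue. Alas2, the haem synthesis enzyme of red cell precursors, rose by 2.49, while the globin gene Hba-a1 was at 5.32 and 5.43 in SO, against 5.47 and 5.35 in Pa.

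Astrocyte markers split by gene. Gfap, the intermediate filament of fibrous astrocytes, read 12.59 and 12.36 in SO, against 9.63 and 9.82 in Pa, a rise of 2.75. Aqp4, Vim, a second filament, and Gjb6, an astrocyte connexin, rose by 2.66, 2.59 and 1.68. The other 9 of 13, among them the glutamate transporters Slc1a2 and Slc1a3 and the connexin Gja1 at 0.24, -0.03 and 0.24, did not pass, and the median of the list was 0.35. Aldh1l1, used to mark astrocytes as a whole, differed by 0.57.

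Of the 675 genes higher in SO, 424 (62.8%) had levels that ran with the meningeal or myelin list over other regions, against 5.85% of all genes. Across 47 other regions of brain and spinal cord, 377 genes (2.07%) correlated above 0.6 with the mean of the meninges list, and 247 of the 675 genes higher in SO (36.6%) were among them, against 0 of the 431 lower. With the myelin list 687 genes (3.78%) did so, 177 of the higher genes (26.2%) and 5 of the lower (1.16%). Leaving out both sets kept 251 of the higher genes and 426 of the lower. These correlations describe regions that share the arrays' processing, and the share of meningeal or white matter tissue in the SO punches was not tested.

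**Figure D3:**
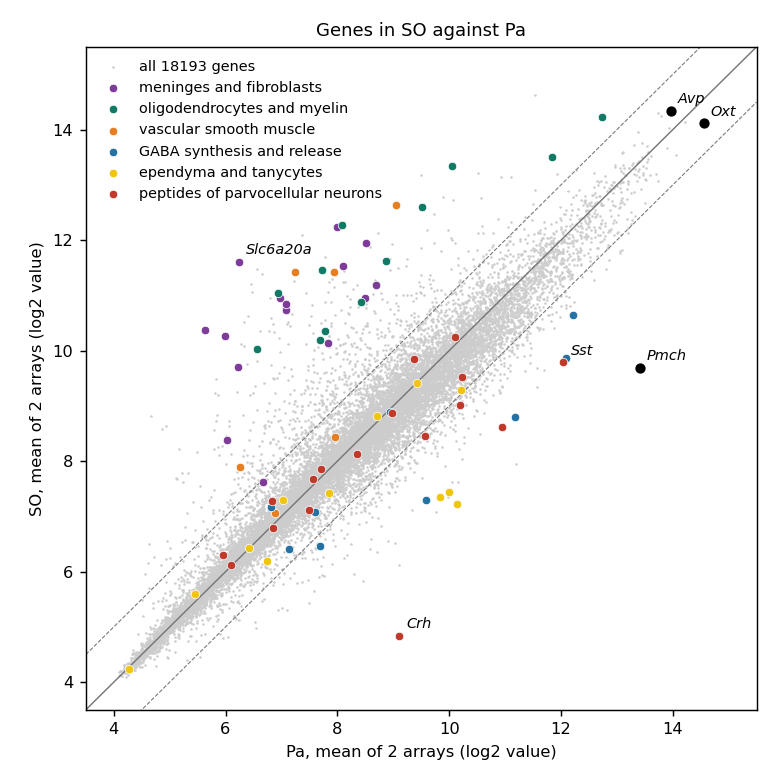
Mean log2 value of each of 18193 genes in SO (vertical axis) against Pa (horizontal axis), 2 arrays each, with list members coloured; the solid line marks equal values and dashed lines a 2-fold difference. Most meningeal, myelin and smooth muscle genes lie above the upper line, Avp and Oxt between the lines, and Crh, Pmch, Sst and 5 of 9 GABA genes below the lower one.

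Pa, which borders the third ventricle, was higher in some genes of motile cilia. Of 12 ependymal and tanycyte markers 3 fell in SO and none rose (median -0.23). Tmem212, a membrane protein of ciliated cells, read 7.24 and 7.20 in SO, against 10.18 and 10.11 in Pa, a difference of -2.93. Ccdc153 and Dynlrb2, both of motile cilia, fell by 2.57 and 2.47. Foxj1, the factor that switches on motile cilia, read 6.28 and 6.10 in SO, against 6.66 and 6.81 in Pa, a difference of -0.54. The tanycyte markers Rax and Crym differed by 0.13 and 0.01. Across the same 47 regions 265 genes (1.46%) correlated above 0.6 with the ependymal list, and 40 of the 431 genes lower in SO (9.28%) were among them; without these 391 remained.

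Among choroid plexus genes, Ttr, transthyretin, read 10.86 and 9.62 in SO, against 12.64 and 9.74 in Pa, and the arrays of each region lay further apart than the difference of -0.95 between the regions. That difference was 0.50 without the first Pa array and -2.40 without the second. Of 8 measured choroid plexus genes only Kcnj13, a potassium channel, passed, rising by 2.43 with a list median of -0.14.

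Some markers of neurons in areas around the punches passed, with rises and falls among them. Of all genes 3.71% were higher in SO and 2.37% were lower. Of 11 basal forebrain cholinergic and pallidal genes Zic1 rose by 1.19 and Isl1, a LIM homeobox factor also used by hypothalamic neurons, fell by 2.53 (median 0.43). Zic1 was not called without any 1 of the 4 arrays, at adjusted p of 0.0575 to 0.145 in limma, and its second probe set gave 0.03. Of the 11 genes 9 had a positive and 2 a negative difference. Chat, the acetylcholine enzyme, differed by 0.10. Lhx8, Slc18a3, Ngfr and Slc5a7 were higher in SO by 0.79, 0.77, 0.75 and 0.49, and Ache was lower, at -0.66. These 5 differences were under 2-fold, each with an adjusted p under 0.05 in limma. Without the first SO array the differences of Lhx8 and Slc18a3 were past 2-fold.

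Of 13 amygdala, piriform and cortical genes Lmo3 and Rspo1 fell by 1.09 and 1.17 (median -0.14), and Lmo3 was under 2-fold, at -0.92 without the second SO array and -0.999 without the first Pa array. Of 10 striatal genes only Penk fell (median 0.10), and of 12 thalamic genes Plekhg1 rose by 1.19 and Calb2, calretinin, fell by 1.12 (median -0.08), or by 0.99 without the second Pa array, which is under 2-fold. None of 11 suprachiasmatic or 9 pituitary genes passed, with medians of -0.48 and 0.12. Vip, which marks the suprachiasmatic nucleus, read 6.33 and 5.92 in SO, against 6.11 and 6.08 in Pa. Of the 11 suprachiasmatic genes 7 had a negative and 4 a positive difference. Six3 was lowest at -0.89, or -1.01 without the first Pa array, and Six6 was at -0.75. Other probe sets of Six3 gave -0.19 and 0.08.

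Clock genes, in RNA pooled over the day, gave 1 rise and no fall in 19, Hlf, a PAR-domain output factor, at 1.17 (median -0.12). Its second probe set gave 0.54. The core factors Arntl, Clock, Per1, Per2 and Cry1 differed by -0.45, -0.60, 0.05, 0.11 and -0.19. Cry2 and Tef, at -0.65 and -0.51, were lowest in SO of 52 regions, as was Clock. These ranks are those of the brightest probe set. Other probe sets gave -0.85 to 0.54 for Clock and -0.14 and -0.11 for Tef. None of 15 immediate early genes passed (median 0.27), and Fos, the usual marker of activated magnocellular neurons, read 9.15 and 8.76 in SO, against 8.62 and 8.50 in Pa. Junb had the largest difference at 0.95.

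**Figure D4:**
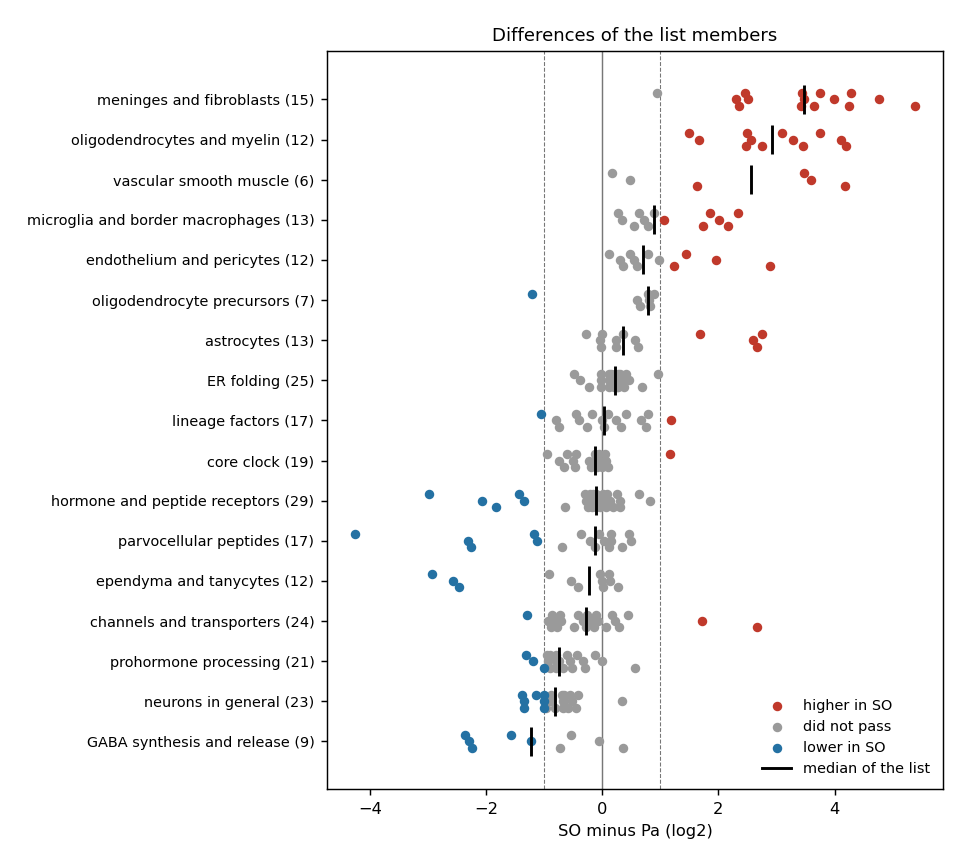
SO minus Pa (log2, horizontal axis) for each measured member of 17 gene lists (vertical axis, number of genes in brackets); red and blue points passed the test higher and lower in SO, grey points did not, and black bars are medians. Medians run from 3.48 for the meninges to -1.22 for GABA synthesis and release.

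The 15 genes that rose most in SO were Slc6a20a, Slc13a3, Efemp1, Thbd, Islr, Ranbp3l, Ccn2, Slc47a1, Mgp, Aldh1a1, Anln, Ugt8a, Tagln, Pcolce and Cdh1, with differences of 5.38 to 4.15. Slc6a20a, Efemp1, Slc47a1 and Mgp are members of the meninges list, Ugt8a of the myelin list and Tagln of the smooth muscle list. Slc13a3, a dicarboxylate transporter, read 11.49 and 11.47 in SO, against 6.40 and 6.71 in Pa, and its other 3 probe sets gave 0.08 to 3.13.

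Thbd, thrombomodulin, which restrains clotting on vessel walls, read 11.14 and 11.26 in SO, against 6.36 and 6.54 in Pa, a difference of 4.75. Ccn2, the connective tissue growth factor, rose by 4.58, Pcolce, which aids collagen maturation, by 4.17, Aldh1a1, which makes retinoic acid, by 4.23, and Cdh1, E-cadherin, by 4.15. Anln, anillin, an actin-binding protein also found in myelin, rose by 4.19. Ranbp3l, a relative of a protein of nuclear transport, read 11.99 and 12.19 in SO, against 7.21 and 7.53 in Pa, and led the next region, POA, by 1.65. Second probe sets gave smaller rises of 0.96 for Ranbp3l, 1.96 for Anln and 1.94 for Pcolce. Of the 15, SO ranked 1 of 52 regions in Slc6a20a, Slc13a3, Thbd, Ranbp3l and Tagln, and 14 in Aldh1a1.

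The 15 genes that fell most were Crh, Pmch, Irs4, Calcr, Tmem212, Synpr, Rsph4a, Cbln4, Ccdc153, Isl1, Glra3, Dynlrb2, Slc32a1, Nell1 and Grik3, with differences of -4.26 to -2.35. Irs4, an insulin receptor substrate abundant in the hypothalamus, read 7.77 and 8.14 in SO, against 11.33 and 11.04 in Pa, a difference of -3.23. Its second probe set gave -0.85. Set against the mean of the 10 other hypothalamic regions, Irs4 stood at -4.02 in SO and -0.79 in Pa.

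Of the others, Synpr, a synaptic vesicle protein, fell by 2.70, Cbln4, a secreted synapse organiser, by 2.62, Glra3, a glycine receptor subunit, by 2.51 and Grik3, a kainate receptor subunit, by 2.35. Grik3 and Glra3 each had a second probe set that differed little, at -0.02 and -0.32, as did Nell1, a secreted protein, at -0.21. Rsph4a, a part of the radial spoke of motile cilia, fell by 2.63. Pa ranked between 2 and 5 of 52 regions in Crh, Pmch, Calcr, Tmem212, Rsph4a, Cbln4, Ccdc153 and Dynlrb2, and between 7 and 21 in the others.

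**Figure D5:**
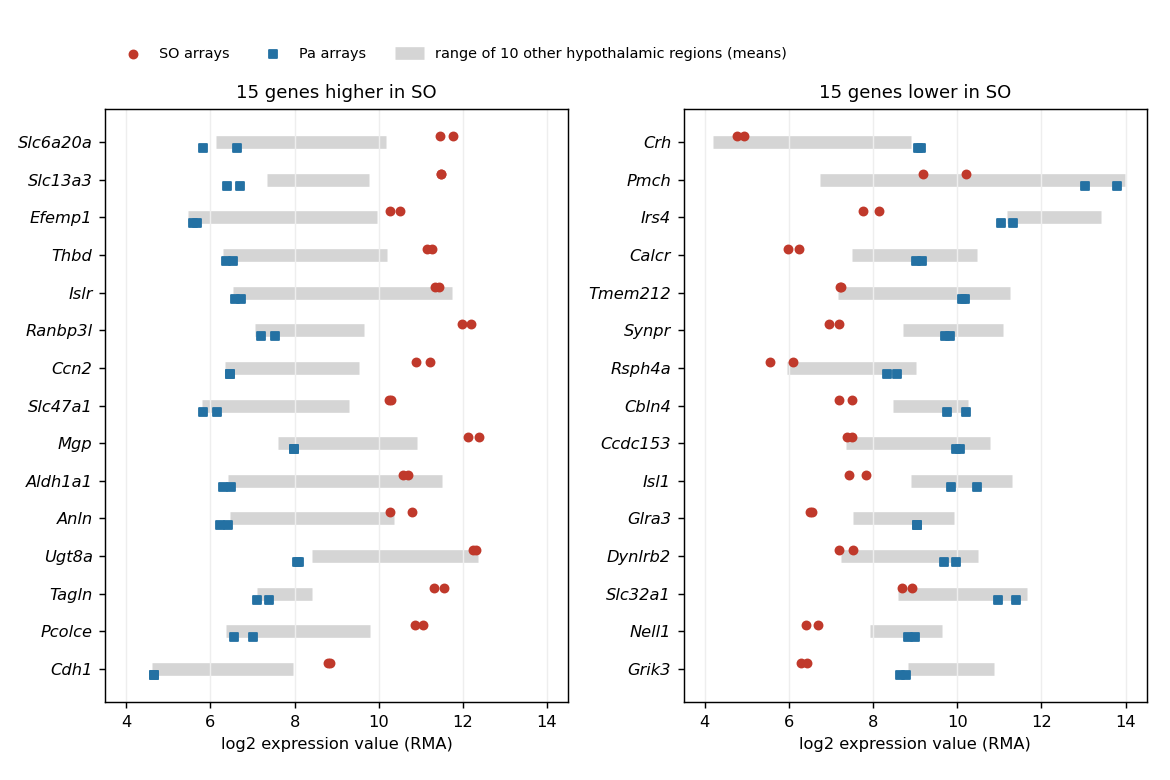
Log2 expression values (RMA, horizontal axis) of the 15 genes that rose most in SO (left) and the 15 that fell most (right), with each SO array as a circle and each Pa array as a square; grey bars span the means of 10 other hypothalamic regions. SO and Pa arrays are apart in every gene, as the rule that chose the genes required, by 5.38 for Slc6a20a and -4.26 for Crh between the means.

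Set against the 10 other hypothalamic regions, more genes passed in SO than in Pa. In SO 485 genes (2.67%) were higher and 403 (2.22%) lower than their mean, and in Pa 27 (0.148%) were higher and 43 (0.236%) lower. Leaving the arrays labelled LH out of the 10, since Pmch and Hcrt peaked elsewhere, gave 491 higher genes in SO and 28 in Pa. No test of the difference between these counts was made, and they share the 10 regions.

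The 27 genes above the other hypothalamus in Pa included 17 members of the lists. Avp, Pmch, Crh and Oxt led, by 3.90, 3.78, 3.66 and 2.98. Next came the neuronal factors Meis2 at 1.88 and Ebf3 at 1.54, the ciliary genes Tmem212 at 1.49, Ccdc153 at 1.47 and Dynlrb2 at 1.03, and Trh at 1.30, Cckar at 1.32, Agtr1a at 1.28, Otp at 1.22 and Gad2 at 1.00. Ttr passed as well, at 1.71 with an adjusted p of 0.021 in limma, on the strength of 1 Pa array, as given above. In SO the same genes stood at 4.28 for Avp, 0.07 for Pmch, -0.60 for Crh, 2.54 for Oxt, 1.83 for Meis2, 2.29 for Ebf3, 0.60 for Trh, -0.75 for Cckar, -0.55 for Agtr1a, 0.42 for Otp and -1.23 for Gad2. Outside the lists, Adcy7, an adenylyl cyclase, read 8.32 and 8.34 in SO, against 9.54 and 9.89 in Pa, which ranked 2 of 52 regions; over the mean of its probe sets the difference was under 2-fold at -0.98.

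Both SO arrays exceeded every array of the other 51 regions in 120 genes, 100 of them with an SO mean at or above the table's median of 7.39. The 10 with the widest lead over the next region were Ranbp3l, Serpind1, Crabp2, Alas2, Caprin2, Asgr1, Slc6a13, Slc22a6, Il6st and Slc13a3, by 1.65 down to 0.83. The next region was POA in 5 of them and Pa in 1, Caprin2. Serpind1, heparin cofactor II, read 10.51 and 10.03 in SO, against 7.96 and 7.74 in Pa, with SCN next at 8.87. Il6st, the signalling receptor of the interleukin 6 family, read 11.18 and 11.10 in SO, against 9.66 and 9.69 in Pa, with the substantia nigra next at 10.30.

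Crabp2, a carrier of retinoic acid, read 10.15 and 10.10 in SO, against 6.26 and 6.28 in Pa, a difference of 3.85. Slc6a13, a GABA and taurine transporter, and Slc22a6, an organic anion transporter, are both members of the meninges list and rose by 3.65 and 2.30. Both Pa arrays exceeded every array of the other 51 regions in 3 genes, of which Ccdc82 alone had a Pa mean at or above the table's median. Ccdc82 read 9.62 and 9.79 in SO, against 10.30 and 10.31 in Pa, a difference of -0.60, and led the ventral subparaventricular zone by 0.05.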

How the data were processed

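Expression was measured on Affymetrix mouse arrays, 2 for each of 52 regions. Per the labels' protocols, Trizol RNA was labelled with biotin in one cycle, and the authors made the deposited log2 values with RMA, per the submitters' processing notes, with no version stated. They were used without further normalization. Of 45101 probe sets, 34945 matched 1 gene and of several probe sets for a gene the one with the highest mean stood for it, giving 18193 genes. A model with a mean for each region was fitted to all arrays of the 52 regions in limma 3.58.1 (R 4.3.3), so the replicate spread comes from 52 residual degrees of freedom (prior 7.87). Contrasts were SO minus Pa and each nucleus minus the mean of 10 other hypothalamic regions, two-sided, with Benjamini-Hochberg adjustment over all genes. Arrays give no counts, so their number limits the precision. The code was tested on simulated data.

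The members, the 30 gene lists (391 genes, 356 measured, some in several lists) and the naming rule were chosen with earlier results of these data known. The named genes were Avp and Oxt, list members, the 15 largest called differences each way (higher mean at or above the median, arrays not overlapping) and up to 10 genes highest in SO, in Pa or in both. Lists that the report does not describe in full are given by counts, and members without a measured row were not analysed here. Replicate numbers were not used to pair the samples. The correlation of the replicate differences of SO and Pa was -0.151. Over 1326 pairs of regions such correlations ran from -0.503 to 0.524, with a median of 0, so this value cannot decide on pairing.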

Additional observations from a re-analysis of the deposited data

How the results depend on the processing

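Direction was followed in 255 genes, under the alternatives that keep 1 value for each gene. No called difference among them changed sign. Single probe sets could differ in sign, as the other 3 of Slc32a1 did at 0.21 to 0.32. Calling on the adjusted p alone gave 2960 genes higher in SO and 3529 lower, 4288 higher in SO than in other hypothalamus and 631 higher in Pa, and testing every probe set separately gave 1198, 785, 866 and 45. Averaging a gene's probe sets left 287 genes lower in SO. Leaving out genes that follow the meninges list gave 428 higher genes, and leaving out those that follow either list, an alternative chosen after seeing the data, 251. Leaving out 1 array gave 646 to 725 genes higher and 370 to 520 lower, 473 to 542 higher in SO than in other hypothalamus and 26 to 31 in Pa, and differences of 0.14 to 0.62 for Avp and -0.72 to -0.16 for Oxt. The replicate block left the counts at 675 and 431, as did the crossed pairing, added after seeing the data, and it changed no call. With both replicates in every region a block cannot move a difference. All 1106 genes past 2-fold also passed on p as deposited, so these counts cannot decide on pairing. Oxt reached an adjusted p of 0.0302 after median centring and 0.0486 with array weights, at less than 2-fold; the cause was not tested. Median centring moved the median of all genes to -0.058.

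Of 255 genes tested under the alternatives (called or significant list members, the list of neurons in general and the other named genes), averaging probe sets took 12 calls away, Slc32a1, Esr1, Foxp1, Gucy1a1, Hlf, Rab3c, Syt4, Zic1, Adcy7, Rbfox3, Syn2 and Syp, and added 8. Leaving out 1 array took 4 to 9 calls away. Signs turned only among differences that did not pass as deposited. After median centring Defb15 stood at -0.0313, Sim1 at -0.0236 and Upk2 at -0.011, and after quantile normalization Defb15 at -0.0411, Inhbc at -0.00436 and Sim1 at -0.0293. Over the mean of probe sets Sim1 was at -0.0572. On leaving out 1 array Sim1 ran from -0.198 to 0.263, Defb15 from -0.0515 to 0.101, Dmrtb1 from -0.149 to 0.107, Selenov from -0.150 to 0.114, Upk2 from -0.0257 to 0.116, Meis2 from -0.445 to 0.339 and Ttr from -2.40 to 0.50. Arrays give no depth, and 2 of them a region set the precision, a median SE of 0.12 for SO minus Pa.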
